A study of Mus musculus with 12 samples.

Results

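Lin28b, Igf2bp1, Igf2bp2, Igf2bp3, Hmga2 and Arid3a are 6 genes of the fetal stem cell programme that is built around the RNA-binding protein LIN28B. They were chosen by symbol, as genes known to mark fetal rather than adult blood stem cells, and they are 6 of the 19463 genes with a count in the libraries. All 6 passed the filter on low counts in every comparison at full depth, and fewer did where wells were thinned to a fixed number of UMIs. Their levels were followed across 4 genotypes, and across wells that held messenger RNA of Hlf, a stem cell transcription factor, or of Klf1, an erythroid one.

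The libraries came from single LSK cells (blood progenitors without lineage markers and with Sca-1 and Kit at the surface, among them the stem cells) of C57BL/6J fetal liver at embryonic day 18.5. Cells had been sorted by FACS into multi-well plates and sequenced with SORT-seq, which tags the 3′ end of each messenger RNA with barcodes for its well and for the molecule, so that a count (UMI) stands for 1 molecule. The 12 plates comprised 3 of wild type (WT), 3 of a Rev1 knockout (Rev1-/-), 2 of homozygous Pcna K164R and 4 of the double mutant with both changes. Rev1 is a translesion DNA polymerase, and the lysine changed in Pcna K164R is the residue whose ubiquitination recruits such polymerases to damaged DNA. The labels do not say which part of Rev1 is deleted, and a 3′ tag may lie outside it. Plates are named by genotype and a number that carries no further meaning, and nothing in the labels ties the plates to separate fetuses. The p-values below therefore rest on differences among plates, and these may be technical.

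LIN28B binds the precursors of the let-7 microRNAs and blocks their maturation, which keeps let-7 low in fetal cells. Messenger RNAs with let-7 sites, among them Hmga2, Arid3a, the Igf2bp genes and Lin28b itself, are thereby spared from let-7. IGF2BP1, IGF2BP2 and IGF2BP3 bind and stabilise messenger RNAs, HMGA2 is an AT-hook chromatin protein that favours fetal stem cell self-renewal, and ARID3A is a DNA-binding protein that favours fetal-type B cell output. The programme is known to fade in blood stem cells after birth.

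The feature that ties the 6 genes together is the let-7 site, so the microRNAs and the sites are shown first. The 9 mature let-7 family members of the mouse (RefSeq) all carried the same seed, bases 2 to 8, here in capitals, and 3 of them show how the rest of the molecule varies.
mmu-let-7a-5p: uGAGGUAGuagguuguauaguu
mmu-let-7d-5p: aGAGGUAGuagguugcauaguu
mmu-miR-98-5p: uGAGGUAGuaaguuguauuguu

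The messenger RNA letters that pair with this seed are CTACCTC, called an 8-base match here where an A follows. They were searched on the sense strand only, in the longest annotated 3′ UTR of each gene (GENCODE M21, build GRCm38). All 6 genes held at least 1 match, and each held at least 1 8-base match. Of 20829 mouse genes with a 3′ UTR of at least 30 bases, 9.1% held the 7 letters and 3.1% the 8-base form. Longer 3′ UTRs held a match more often (12.1% of genes of the length of Igf2bp2, 34.4% of those of the length of Igf2bp1), so each gene was set beside genes of like length, whose 3′ UTR was at most 25% longer than its own, or its own at most 25% longer than theirs. The first match of each gene after the stop codon is given with its flanks, the 7 letters in capitals.
Lin28b, chr10:45381016-45381043, minus strand: cccgggcgggaagtCTACCTCatgcaag
Igf2bp1, chr11:95961772-95961799, minus strand: ctgtgcgaagtaaaCTACCTCaaggtgt
Igf2bp2, chr16:22059467-22059494, minus strand: cacacaaataaaagCTACCTCaggtgtt
Igf2bp3, chr6:49086781-49086808, minus strand: gcatttttactcaaCTACCTCaggtatt
Hmga2, chr10:120364218-120364245, minus strand: ccgacattcaatttCTACCTCagcatca
Arid3a, chr10:79953896-79953923, plus strand: aggcaagtttctttCTACCTCaggtctt

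Hmga2 held 4 matches in a 3′ UTR of 3014 bases, a number reached by 0.12% of the 2438 genes of like length. Lin28b held 4 in 4445 bases, reached by 0.29% of 1358 genes, and Igf2bp1 4 in 6337 bases, reached by 0.33% of 605 genes. Arid3a held 2 in 3082 bases, reached by 2.35% of 2379 genes. Igf2bp2 and Igf2bp3 held 1 match each, in 1784 and 2119 bases, as did 12.1% and 13.3% of genes of like length. The counts separate a group rich in sites (Hmga2, Lin28b, Igf2bp1) from a pair with a single one. A match is a run of letters, and no microRNA was measured in these libraries.

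**Figure D1:**
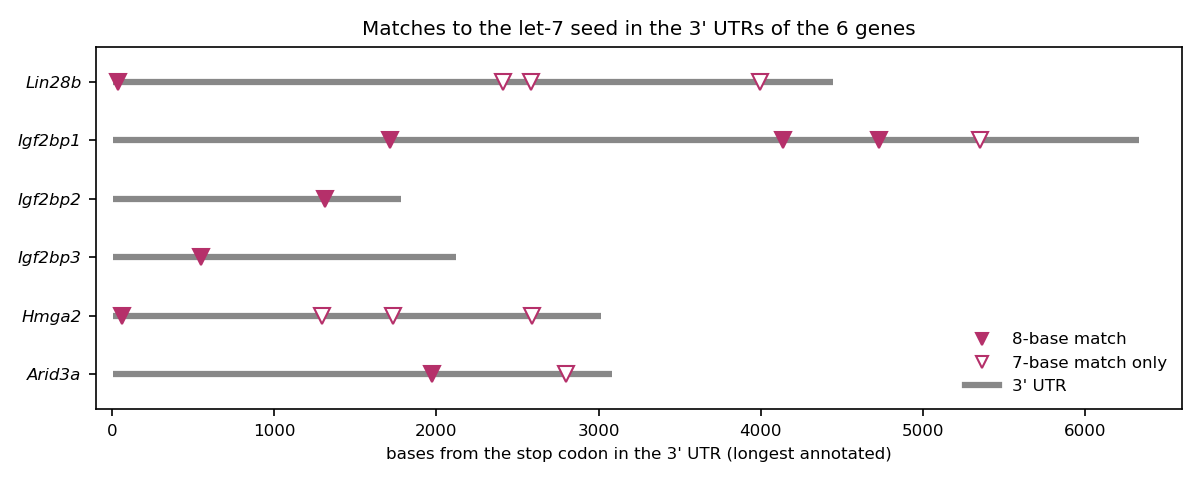
Position of each match to the let-7 seed in the longest annotated 3′ UTR of the 6 genes, in bases from the stop codon (x axis), with filled triangles for matches followed by an A. Lin28b, Igf2bp1 and Hmga2 hold 4 matches each, Arid3a 2, and Igf2bp2 and Igf2bp3 1 each.

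Wells with fewer than 1000 UMIs were dropped, which left 3088 of 4608 wells, and the kept wells of a plate were summed. Plate sums ran from 212938 to 11617420 UMIs. The library labelled double mutant 3 stood apart as the thinnest, with 82 kept wells and a TMM factor (edgeR's scaling factor for a plate's composition) of 0.549, against 0.973 to 1.115 in the other 11 plates. Rev1 itself lay between 10.5 and 18.4 CPM (CPM is a count scaled to the library's total, here after TMM scaling) in the 3 WT plates and between 1.26 and 5.62 CPM in the 3 Rev1 knockout plates. The library labelled double mutant 4 held Rev1 at 13.4 CPM (33 UMIs), a level within that of the WT plates and against its label, so results are also given without these 2 libraries. Of the 8 stem markers all were detected, with a summed level of 556 to 920 CPM in the double mutant plates and 1280 to 1480 in WT. Of 10 erythroid markers 9 were detected (581 to 2110 against 522 to 953 CPM). The 6 lymphoid-primed markers, all detected, stood at 81.2 to 214 against 464 to 515 CPM, and the 5 megakaryocyte markers at 109 to 199 against 210 to 278 CPM. The 7 granulocyte and monocyte markers overlapped, at 645 to 1080 against 624 to 4720 CPM. After thinning every well to 1000 UMIs, Klf1 was seen in 2.44% to 10.28% of wells on the double mutant plates and in 0% to 3.41% on the WT plates. The stem, lymphoid-primed and megakaryocyte sums differed between double mutant and WT plates without overlap, while the erythroid sums and the Klf1 shares overlapped. The Klf1 shares overlapped only through double mutant 3 (2.44%), the thinnest plate. Double mutant 1, 2 and 4 stood at 7.56%, 9.7% and 10.28%, against at most 3.7% in Rev1 knockout and 3.93% in Pcna K164R plates. The Pcna K164R plates held the erythroid markers at 1050 to 1110 CPM. In sums over a plate, fewer cells of a type and less RNA per cell cannot be told apart.

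Of the 6 genes 3 were lower in the double mutant than in WT and none was higher. Igf2bp2, Hmga2 and Arid3a fell to between 0.387 and 0.518 of the WT level, while Lin28b, Igf2bp1 and Igf2bp3 did not pass the test. Over all 12221 genes tested, 4.21% passed at an adjusted p under 0.05 (220 higher, 294 lower), and 15.7% had double mutant and WT plates that did not overlap in CPM, a pattern shown by the same 3 of the 6 genes. The median log2 fold change of the 6 genes was -0.59, against -0.04 over all genes.

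Lin28b, the regulator of let-7, measured 18.6, 14.4 and 19.6 CPM on WT plates 1 to 3. It measured 32.1, 34.8, 0 and 36.5 CPM on double mutant plates 1 to 4. Of the double mutant plates 3 thus lay above every WT plate, and the remaining one, the thinnest, had no Lin28b UMI. At its depth, 0 UMIs allow up to 14.1 CPM before TMM scaling (3 UMIs of the total, counting error only), or 25.7 CPM after it, while the WT plates before scaling held 19.4, 16.0 and 21.7 CPM. The limit thus lay below the WT plates before scaling and above them after it. The log2 fold change was 0.86 ± 0.31 (SE), with an adjusted p of 0.128. Without double mutant 3 it was 0.97 ± 0.20 (adjusted p = 0.0122), and without double mutant 3 and 4 together 0.85 ± 0.28 (adjusted p = 0.142). Without Rev1 knockout 1, the other plate of the same sort session, it was 1.00 ± 0.20 (adjusted p = 0.0108). Double mutant 3 is then alone in its session and the term for sort session takes it up, so this is no second result. The Rev1 knockout plates held 21.7, 16.4 and 20.6 CPM and the Pcna K164R plates 26.0 and 28.3 CPM. The mean was 17.5 ± 2.76 CPM (SD) for the 3 WT plates, 19.6 ± 2.80 for the 3 Rev1 knockout plates, 25.8 ± 17.3 for the 4 double mutant plates and 27.2 ± 1.63 for the 2 Pcna K164R plates. Without double mutant 3 the double mutant mean was 34.5 ± 2.22 CPM, above both Pcna K164R plates. None of the genotype comparisons of Lin28b over all plates passed, that with Pcna K164R included (0.31 ± 0.34, adjusted p = 0.825). Lin28a, the paralog that also blocks let-7, was near the floor of detection, with 20 UMIs over the 3 WT plates and 22 over the 4 double mutant plates.

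Igf2bp1 measured 30.3, 11.9 and 19.6 CPM in WT, 31.3, 29.4 and 21.7 in Rev1 knockout, 23.2 and 33.1 in Pcna K164R, and 17.4, 23.9, 17.4 and 47.9 in the double mutant. All 4 genotypes overlapped. The double mutant value from plate 3 rested on 2 UMIs. The difference from WT was 0.41 ± 0.40 on the log2 scale (adjusted p = 0.592), and its sign followed 1 library: without double mutant 4 it was -0.52 ± 0.35 (adjusted p = 0.635). Within sort session 1 it was -0.55 ± 0.31 (adjusted p = 0.39), and within session 3, where double mutant 4 is the sole double mutant plate, 1.63 ± 0.35 (adjusted p = 0.0277).

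Igf2bp2 measured 101, 95.6 and 66.1 CPM in WT, 105, 76.1 and 61.1 in Rev1 knockout and 63.4 and 70.3 in Pcna K164R. In the double mutant it measured 36.1, 36.1, 60.8 and 32.8 CPM, the third value from 7 UMIs. Every double mutant plate lay below every plate of the other genotypes, though the third by little. Of all genes 11% lay below the WT plates in this way, and the share below all other genotypes is not given here. Before TMM scaling the 4 double mutant plates were nearly level, at 35.2, 35.9, 33.3 and 33.8 CPM. The log2 fold change against WT was -1.37 ± 0.19 (adjusted p = 0.00708), rank 18 of all genes by p. Igf2bp2 was also lower than in Rev1 knockout plates, by -1.07 ± 0.22 (adjusted p = 0.0392). Against Pcna K164R the difference was -0.85 ± 0.21 (adjusted p = 0.314). From highest to lowest, the mean was 87.6 ± 18.8 CPM in WT, 80.7 ± 22.3 in Rev1 knockout, 66.8 ± 4.88 in Pcna K164R and 41.4 ± 13.0 in the double mutant, and the first 3 overlapped.

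Igf2bp3 measured 139, 162 and 189 CPM in WT, 145, 191 and 177 in Rev1 knockout and 181 and 177 in Pcna K164R. The double mutant plates held 195, 142, 52.1 and 120 CPM, so they spread to both sides of WT, with the lowest value resting on 6 UMIs. The log2 difference from WT was -0.23 ± 0.25 (adjusted p = 0.633). Without double mutant 3 and 4 it was 0.28 ± 0.22 (adjusted p = 0.498). The spread between double mutant plates was thus larger than the difference.

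Hmga2, the gene with the densest let-7 matches, measured 569, 531 and 479 CPM in WT and 495, 612 and 513 in Rev1 knockout. It measured 364 and 629 CPM in Pcna K164R and 287, 293, 286 and 206 in the double mutant. The 4 double mutant plates lay below all 8 others, and the 2 Pcna K164R plates stood far apart from each other. Below the WT plates alone lay 11% of all genes, and the share below all 8 is not given here. The log2 fold change was -1.05 ± 0.24 against WT (adjusted p = 0.034) and -1.16 ± 0.26 against Rev1 knockout (adjusted p = 0.0475). Against Pcna K164R it was -0.80 ± 0.27 (adjusted p = 0.372). The means were 540 ± 63.0 CPM for Rev1 knockout, 526 ± 45.2 for WT, 496 ± 187 for Pcna K164R and 268 ± 41.4 for the double mutant, and the first 3 overlapped.

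Arid3a measured 62.0, 81.2 and 96.6 CPM in WT and 50.6, 78.0 and 74.6 in Rev1 knockout. It measured 40.1 and 65.1 CPM in Pcna K164R and 33.2, 32.9, 34.7 and 43.8 in the double mutant. Double mutant plates lay below all WT and Rev1 knockout plates, and the highest of them overlapped the lower Pcna K164R plate. The share of all genes below both WT and Rev1 knockout is not given here. The log2 fold change against WT was -0.95 ± 0.20 (adjusted p = 0.0275). It was -0.73 ± 0.24 against Rev1 knockout (adjusted p = 0.134) and -0.68 ± 0.22 against Pcna K164R (adjusted p = 0.362).

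**Figure D2:**
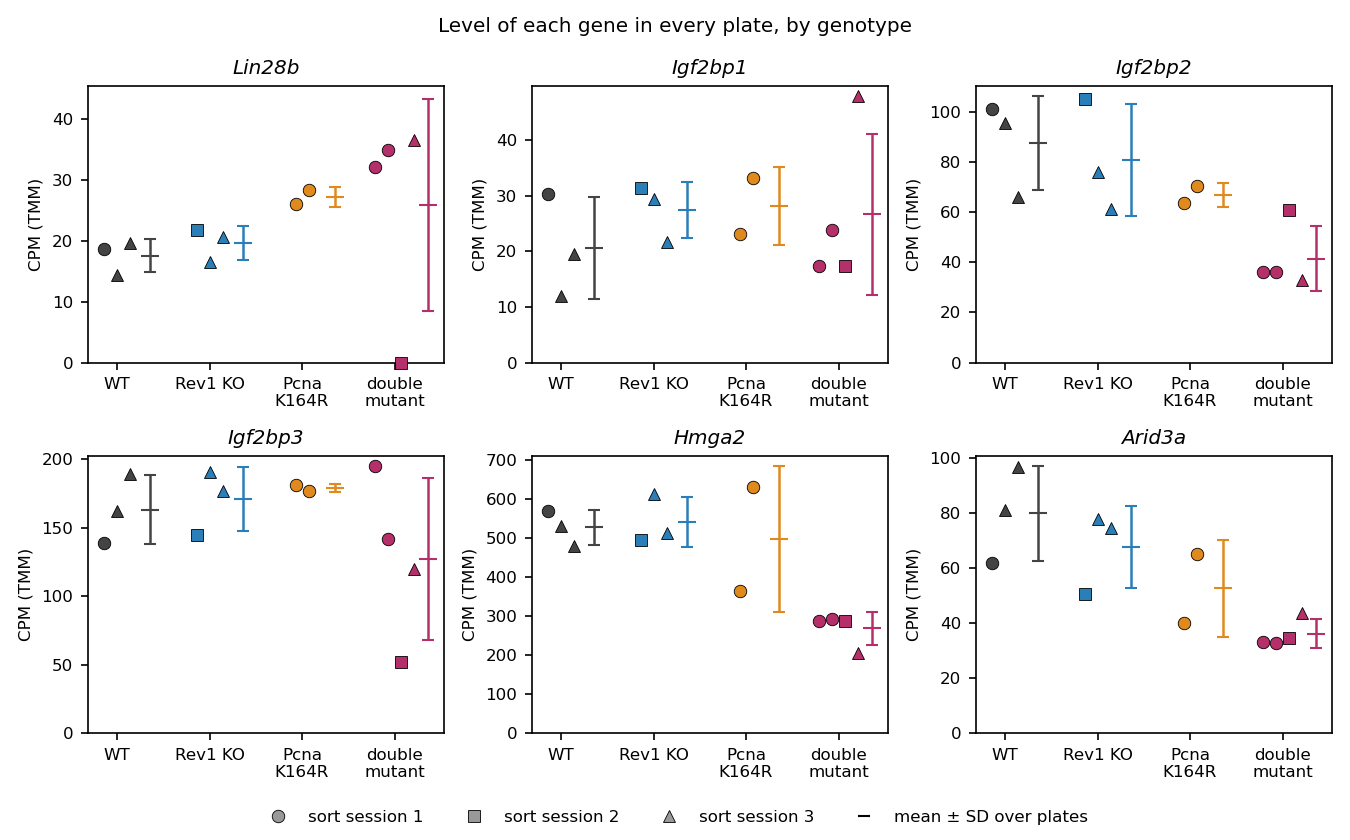
Level of each gene (TMM-scaled CPM, y axis, from 0) in each plate by genotype (x axis), with the marker shape giving the sort session and the bars the mean ± SD over plates. The 4 double mutant plates lie below the 3 WT plates for Igf2bp2, Hmga2 and Arid3a, and double mutant 3 holds no Lin28b UMI.

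None of the 6 genes passed the test in either single mutant against WT, which does not show that their levels were equal. For Rev1 knockout the log2 fold changes ran from -0.30 ± 0.21 (Igf2bp2) to 0.32 ± 0.26 (Igf2bp3), with adjusted p of 0.652 or more. In that comparison edgeR called 0 of the 12221 genes (0%), with 1116 at an unadjusted p under 0.05, and DESeq2 called 66. For Pcna K164R they ran from -0.52 ± 0.24 (Igf2bp2, unadjusted p = 0.0475) to 0.55 ± 0.39 (Lin28b), and edgeR again called 0 genes (0%), with 239 at an unadjusted p under 0.05 and 0 by DESeq2. Both Pcna K164R plates lay above the 3 WT plates in Lin28b, which so few plates can show by chance. The share of all genes separated in this way is not given here. Of the 6 genes 2 passed in the double mutant against Rev1 knockout, where 1.75% of all genes did. None passed against Pcna K164R, where 5 of 12221 genes did (0.0409%), and the unadjusted p of Igf2bp2, Hmga2 and Arid3a there were 0.00172, 0.0115 and 0.0104. By DESeq2, Igf2bp2 passed in that comparison (-0.85 ± 0.23, adjusted p = 0.0302). The comparisons share plates, so their values are not independent.

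The 3 calls against WT changed when single plates or classes of wells were left out. Leaving out double mutant 1, double mutant 2, WT 1, WT 2, WT 3 or Rev1 knockout 3 left 1 call, that of Igf2bp2, and leaving out double mutant 4 left none (Igf2bp2 -1.40 ± 0.24, adjusted p = 0.0803). Leaving out double mutant 3 or Rev1 knockout 1, which both take double mutant 3 out of the comparison, gave 4, with Lin28b added. The fold changes moved little: with 1 plate left out, Igf2bp2 stayed between -1.24 and -1.45, Hmga2 between -0.87 and -1.12, and Arid3a between -0.85 and -0.99. Without double mutant 3 and 4 together, Igf2bp2 alone passed (-1.47 ± 0.23, adjusted p = 0.0301). WT and double mutant plates were never on the same flow cell, and when flow cell replaced sort session in the fit none passed, with Igf2bp2 at -1.43 ± 0.42 (adjusted p = 0.312) and Hmga2 at -0.34 ± 0.42 (adjusted p = 0.8). With wells thinned to 1000 UMIs Lin28b could not be tested, and of the 5 others Hmga2 alone passed (-1.03 ± 0.25, adjusted p = 0.0355), and Igf2bp2 was at -0.62 ± 0.32 (adjusted p = 0.357). When all wells with a Klf1 UMI were removed, 0 of the 6 passed and the fold changes became -0.98 ± 0.22 for Igf2bp2 (adjusted p = 0.067), -0.66 ± 0.21 for Hmga2 (adjusted p = 0.183) and -0.70 ± 0.21 for Arid3a (adjusted p = 0.166). The 2 calls against Rev1 knockout were lost to 0 on leaving out double mutant 1, 2 or 4, WT 1, 2 or 3, or Rev1 knockout 2 or 3, and to 1 on leaving out Pcna K164R 1 or 2.

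Wells were then divided by their markers, with a well called Hlf-only with at least 1 UMI of Hlf and none of Klf1, Klf1-only for the reverse, and unmarked with neither. There were 2121 Hlf-only, 204 Klf1-only and 432 unmarked wells, and 331 wells with both markers stayed out of the tests. Sums of at least 10 wells entered, giving 12 plates for Hlf-only and unmarked wells and 6 for Klf1-only wells, none of them WT. Other markers sorted with the classes. Gata1, an erythroid transcription factor, had a median of 298 CPM in Klf1-only and 11.6 in Hlf-only sums, and Mecom, a stem cell transcription factor, 6.15 and 101 CPM. Median UMIs per well ran from 1601.5 to 11316 over the plates for unmarked wells and from 3718.5 to 45288.5 for Klf1-only wells, so the classes differed in depth.

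Of the 6 genes 5 were higher in Hlf-only than in Klf1-only wells, and Lin28b was lower. All 6 passed the test, in a comparison where 59.3% of 9089 genes did. In each of the 6 plates with both classes the 6 genes kept these directions, as did 53.7% of all genes in 1 direction or the other.

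Igf2bp2 spanned 43.1 to 140 CPM (median 84.8) in the 12 Hlf-only sums and 4.87 to 14.1 CPM (median 8.3) in the 6 Klf1-only sums. The 2 ranges did not overlap. The log2 difference was 2.80 ± 0.19 (adjusted p = 6.36e-14), 6.96-fold. Hmga2 spanned 175 to 760 CPM (median 540) in Hlf-only and 47.1 to 149 CPM (median 94.6) in Klf1-only sums, again apart. The share of all genes with ranges apart between these classes is not given here. Its difference was 2.43 ± 0.14 (adjusted p = 2.36e-15), 5.37-fold. Wells with both markers lay between, with medians of 30.3 CPM for Igf2bp2 and 216 for Hmga2.

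Igf2bp1 spanned 0 to 55.1 CPM (median 29.8) in Hlf-only and 5.3 to 39.7 CPM (median 7.8) in Klf1-only sums. These ranges overlapped, since the highest Klf1-only value came from double mutant 4 and the value of 0 from double mutant 3. The difference was 1.53 ± 0.25 (adjusted p = 2.98e-06). Arid3a spanned 36.2 to 111 CPM (median 72.4) against 14.6 to 24.7 CPM (median 18.6), a difference of 1.40 ± 0.18 (adjusted p = 4.5e-08). Igf2bp3 spanned 0 to 224 CPM (median 184) against 76.6 to 104 CPM (median 92.3), a difference of 1.08 ± 0.12 (adjusted p = 3.22e-09). Apart from the 0 of double mutant 3, each Hlf-only value of Igf2bp3 lay above the Klf1-only range. Per plate the Hlf-only level of Igf2bp3 was 1.91 to 2.53 times the Klf1-only level, a narrower span than the 4.07 to 16.8 times of Igf2bp2. All 204 Klf1-only wells together held 62 UMIs of Igf2bp2 against 625 of Igf2bp3, so the ratios of Igf2bp2 rest on few UMIs.

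Lin28b went the other way. It spanned 0 to 31.3 CPM (median 21.2) in Hlf-only and 25.6 to 49.8 CPM (median 42.6) in Klf1-only sums. The highest Hlf-only values and the lowest Klf1-only values overlapped between plates, but within each of the 6 plates the Klf1-only level was higher. The difference was -0.60 ± 0.18 (adjusted p = 0.00515). By the median over plates, Klf1-only wells thus held the most Lin28b of the marked classes and the least of the 5 other genes. Wells with both markers were not tested and came from other plates in part. In Pcna K164R, mean Lin28b was 40 CPM with both markers and 35.8 in Klf1-only wells. In Rev1 knockout (1 plate), Igf2bp1 was 6.97 CPM with both and 7.83 in Klf1-only wells.

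**Figure D3:**
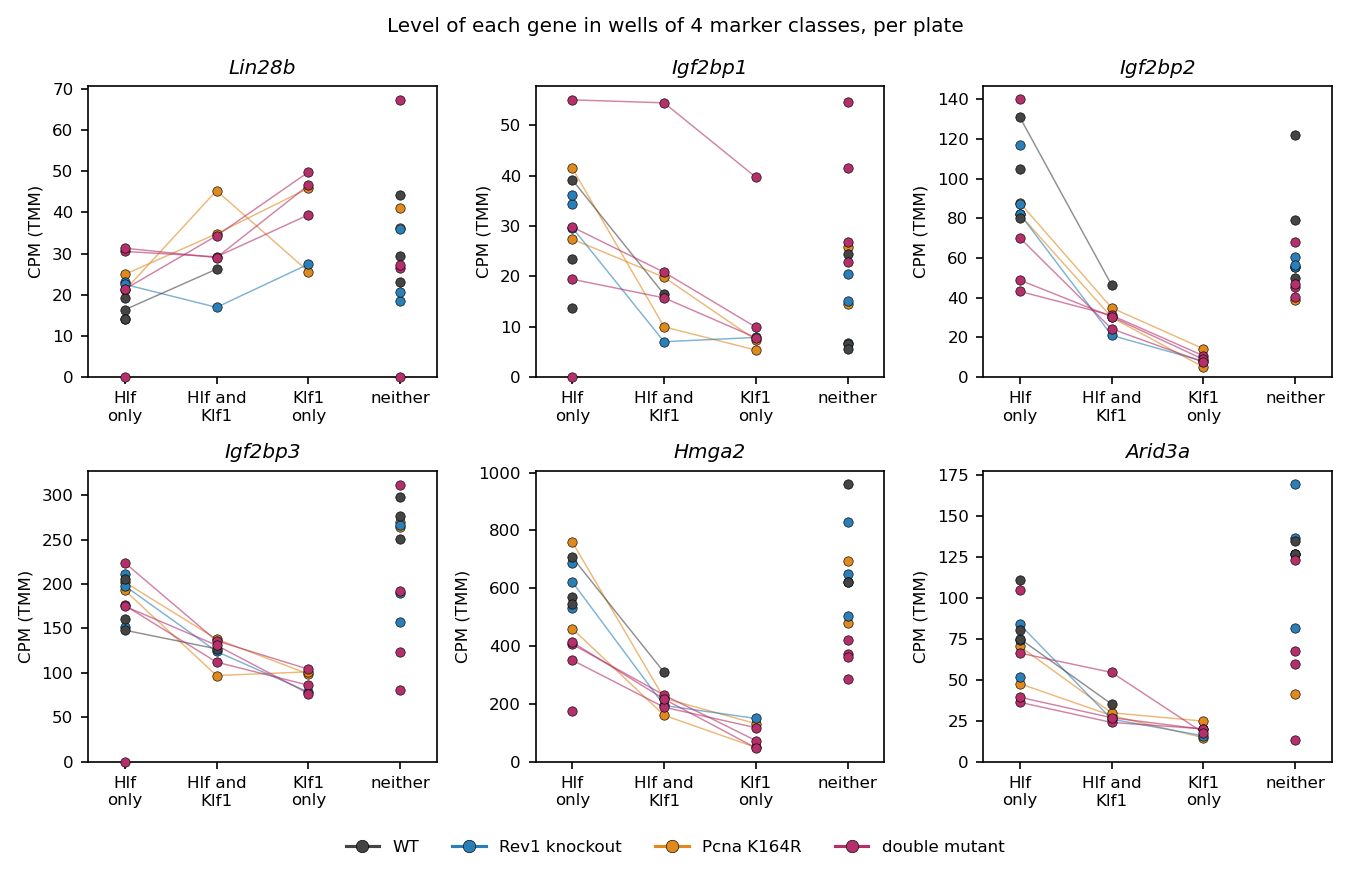
Level of each gene (TMM-scaled CPM, y axis, from 0) in sums of wells with Hlf only, both markers, Klf1 only or neither (x axis), 1 point per plate with at least 10 such wells and lines joining the marked classes of a plate. Igf2bp2 and Hmga2 fall from Hlf-only to Klf1-only wells in every plate with both, and Lin28b rises.

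Unmarked wells resembled neither class in full. Against unmarked wells, Klf1-only wells were lower in 5 genes (52.1% of all genes passed): Hmga2 by -2.49 ± 0.15 (adjusted p = 8.84e-15), Igf2bp2 by -2.27 ± 0.23, Arid3a by -2.06 ± 0.20, Igf2bp3 by -1.44 ± 0.13 and Igf2bp1 by -0.90 ± 0.31 (adjusted p = 0.0164). The call of Igf2bp1 was lost without double mutant 1 (adjusted p = 0.0747) or double mutant 2 (adjusted p = 0.0844). Lin28b differed by 0.08 ± 0.22 (adjusted p = 0.797). Hlf-only wells differed from unmarked wells in 5 genes, where 13.1% of all genes passed. Igf2bp2 (0.53 ± 0.12, adjusted p = 0.00282) and Igf2bp1 (0.63 ± 0.22, adjusted p = 0.0488) were higher in Hlf-only wells. Arid3a (-0.66 ± 0.12, adjusted p = 0.000155), Igf2bp3 (-0.35 ± 0.09, adjusted p = 0.00781) and Lin28b (-0.53 ± 0.18, adjusted p = 0.0488) were lower, and Hmga2 differed by -0.06 ± 0.10 (adjusted p = 0.785). The calls of Lin28b and Igf2bp1 were both lost, leaving 3, without WT 1, WT 2, WT 3, Pcna K164R 1, Pcna K164R 2 or Rev1 knockout 2. That of Lin28b was also lost without double mutant 2 (adjusted p = 0.11) and with no filter on low counts (adjusted p = 0.0889). That of Igf2bp1 was also lost without Rev1 knockout 1 (adjusted p = 0.117) or Rev1 knockout 3 (adjusted p = 0.106), with RLE scaling (adjusted p = 0.0636) and by DESeq2 (adjusted p = 0.101). When wells were thinned to 1000 UMIs before the markers were read, only Igf2bp3 and Hmga2 were among the 2047 genes with enough counts to test, and the 4 others had no test. In Hlf-only against unmarked wells these 2 then stood at 0.08 ± 0.15 (adjusted p = 0.841) and 0.06 ± 0.09 (adjusted p = 0.793). Both still passed in Klf1-only against unmarked wells, Igf2bp3 at -1.44 ± 0.49 (adjusted p = 0.0322) and Hmga2 at -1.56 ± 0.31 (adjusted p = 0.000108).

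Seen per well, Hmga2 had at least 1 UMI in 2796 of 3088 wells (90.54%), Igf2bp3 in 76.04%, Igf2bp2 in 58.03%, Arid3a in 53.89%, Lin28b in 31.15% and Igf2bp1 in 28.5%. After thinning to 1000 UMIs per well, Hmga2 was seen in 43.61% of Hlf-only and 14.22% of Klf1-only wells, and Igf2bp2 in 8.63% and 2.45%. Lin28b was then seen in 46 of 2121 Hlf-only wells and 3 of 204 Klf1-only wells, too few to compare. At full depth Lin28b had a UMI in 28.71% of Hlf-only and 55.39% of Klf1-only wells, but the Klf1-only wells were the deeper ones on most plates.

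To see whether the genotype difference stood within a class, double mutant and WT were compared among Hlf-only wells alone. Of the 6 genes 1 passed, where 2.38% of 11577 genes did. Igf2bp2 in Hlf-only wells measured 131, 105 and 80.2 CPM on the WT plates and 43.1, 48.8, 140 and 70.1 CPM on the double mutant plates. The third double mutant value came from 4 UMIs in 16 wells, and the other 3 lay below all WT plates. The log2 fold change was -0.98 ± 0.22 (adjusted p = 0.0278), but -0.37 ± 0.30 (adjusted p = 0.782) without WT 1. The call was also lost without WT 2, double mutant 1 or double mutant 2.

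Hmga2 in Hlf-only wells measured 707, 569 and 547 CPM in WT and 351, 406, 175 and 413 in the double mutant. The third double mutant value came from 16 wells of the thinnest plate. The groups did not overlap, though the share of all genes that did so in Hlf-only wells is not given here. The log2 difference of -0.70 ± 0.25 did not pass (adjusted p = 0.142). Arid3a measured 75.1, 80.5 and 111 CPM against 36.2, 39.3, 105 and 66.3, with an overlap through double mutant 3 (3 UMIs), and a difference of -0.71 ± 0.23 (adjusted p = 0.108). Lin28b measured 16.3, 14 and 19.1 CPM against 30.5, 31.3, 0 and 21.3, a difference of 0.72 ± 0.30 (adjusted p = 0.21). Igf2bp1 and Igf2bp3 differed by 0.24 ± 0.37 and 0.15 ± 0.27.

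No WT plate had 10 Klf1-only wells, so wells with a Klf1 UMI, with or without Hlf, were compared instead, on 3 double mutant and 3 WT plates. On double mutant 1, 2 and 4 these were 51, 42 and 34 Klf1-only wells beside 69, 71 and 16 with both markers. On WT 1, 2 and 3 they were 4, 5 and 4 beside 71, 5 and 8. The mix was thus uneven between the genotypes, and its part in the differences was not tested. None of the 6 genes passed, and 1.16% of 9620 genes did. The log2 differences were -0.90 ± 0.34 for Igf2bp2 (adjusted p = 0.29), -0.69 ± 0.27 for Hmga2 (adjusted p = 0.313) and 0.78 ± 0.29 for Lin28b (adjusted p = 0.268), and the unadjusted p of these 3 were 0.017, 0.0208 and 0.0151. In unmarked wells none of the 6 and 1 of 7239 genes (0.0138%) passed, with Hmga2 at -1.03 ± 0.28 (adjusted p = 0.367) and Igf2bp2 at -0.94 ± 0.40 (adjusted p = 0.517). Igf2bp2 and Hmga2 were thus below WT in the estimate for each class, with 1 of these 6 estimates past the threshold. Those of Klf1-positive wells rest on the uneven mix given above. Whether the difference itself varies between classes was not tested.

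**Figure D4:**
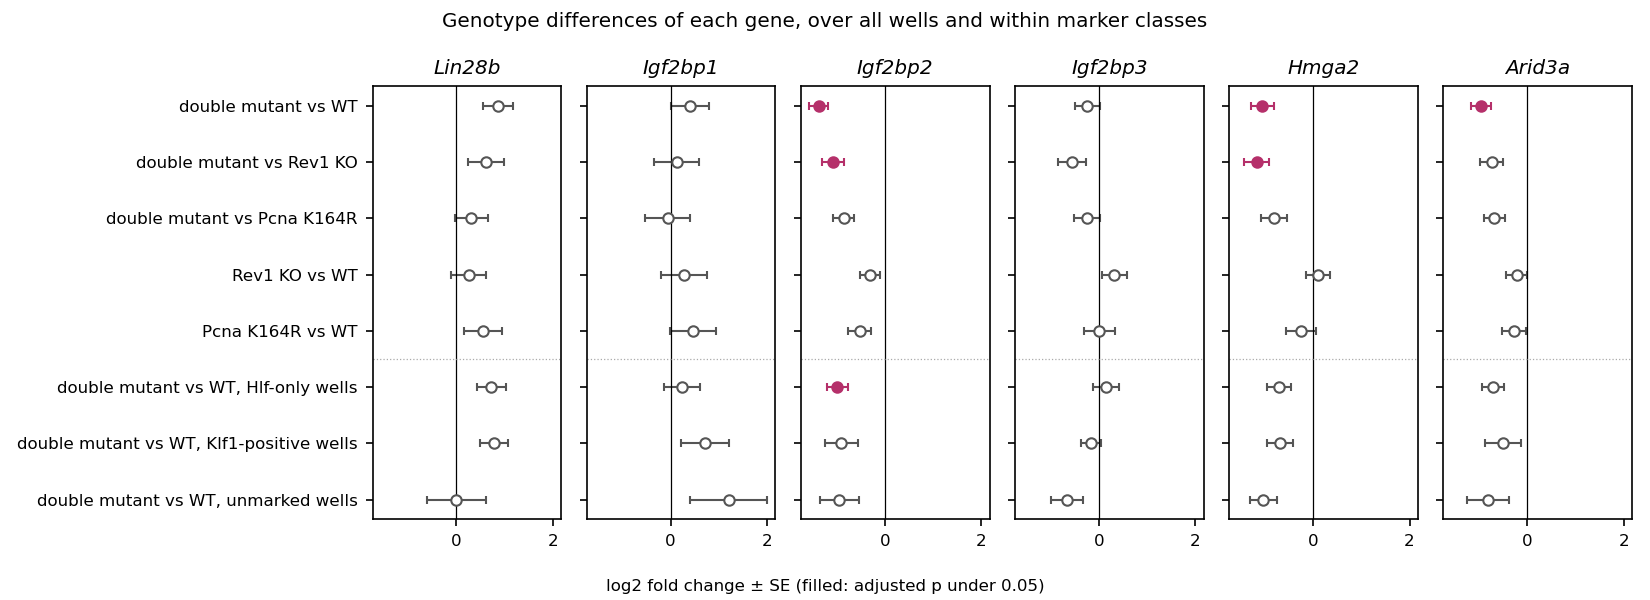
Log2 fold change ± SE (x axis) of each gene in 5 genotype comparisons over all wells and, below the dotted line, in double mutant against WT within 3 classes of wells, filled where the adjusted p is under 0.05. Filled points are those of Igf2bp2 (3), Hmga2 (2) and Arid3a (1), all to the left of 0.

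Other genes of the pathway were counted in double mutant against WT, where 1.8% of all genes were called higher and 2.41% lower. Of 20 tested genes of let-7 processing and silencing (Drosha, Dicer1, the Argonautes and others, 23 listed) none passed in double mutant against WT (median -0.12). Of 33 tested let-7 targets outside the 6 genes (39 listed), 1 was higher, Hras1 (1.08 ± 0.22, adjusted p = 0.0216), and 1 lower, the insulin receptor gene Insr (-1.02 ± 0.19, adjusted p = 0.0187), with a median of -0.06. None of 25 partners and readers of IGF2BP-bound messenger RNA passed (median -0.02), nor any of 13 tested ARID family genes (14 listed, median -0.58). Against Rev1 knockout 1 gene of each of the last 2 lists passed, Ybx1 higher (1.09 ± 0.24, adjusted p = 0.0444) and Arid5a lower (-1.99 ± 0.44, adjusted p = 0.0455).

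Some insulin-like growth factor genes and stem cell genes fell. Of 14 tested IGF signalling genes (20 listed) 4 were lower: Igf2 (-3.90 ± 0.42, adjusted p = 0.00218), the growth factor whose messenger RNA gave the IGF2BP family its name, Igf1 (-2.32 ± 0.34), Pik3r1 (-1.03 ± 0.16) and Insr. Of 14 tested fetal and neonatal stem cell genes (19 listed) 4 were lower: the imprinted genes Meg3 (-4.02 ± 0.34, adjusted p = 0.000731), Igf2, Dlk1 (-2.24 ± 0.26) and H19 (-2.16 ± 0.35). Of the 19 adult-type stem cell genes 4 were lower as well: Hlf (-1.54 ± 0.20), Klf6 (-1.45 ± 0.26), Txnip (-1.06 ± 0.20) and Pdzk1ip1 (-1.29 ± 0.25). No gene of these 3 lists was higher, and the medians were -0.34, -0.77 and -0.67, against -0.04 over all genes. Against WT, genes of both the fetal and the adult lists were thus among those that fell. The summed stem markers given above fell too, and their part in these values was not tested. In Hlf-only wells alone, Igf2 (-3.83 ± 0.41, adjusted p = 7.14e-05), Meg3 (-3.93 ± 0.39), Dlk1 (-2.01 ± 0.24) and H19 (-2.12 ± 0.28) again passed, lower in the double mutant, of 13 fetal and neonatal genes tested. Of 13 IGF signalling genes 4 were lower there and 1 higher, Grb10 (1.03 ± 0.22, adjusted p = 0.0212), an adaptor of insulin and IGF receptors, and of 18 adult-type genes 4 were lower. Of all genes 0.544% were called higher and 1.84% lower in Hlf-only wells. Over all wells against Rev1 knockout, 5 of 14 fetal and neonatal genes and 0 of 19 adult-type genes were lower in the double mutant. Of all genes 1.09% were lower there. Against Pcna K164R, 3 of 14 and 0 of 19 were lower, where 0.0409% of all genes were.

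Between Hlf-only and Klf1-only wells the same lists split. Fetal stem cell genes were higher in Hlf-only wells in 9 of 13 tested and lower in 3, led by Gpr56 (1.84 ± 0.10), Bex1 (4.21 ± 0.34) and Esam (4.47 ± 0.39) on the one side and Bex4 (-2.07 ± 0.10) on the other. Let-7 targets went both ways, 11 higher and 10 lower of 30 tested, with Mycn (3.89 ± 0.21), Limd2 (2.97 ± 0.15) and the cyclin gene Ccnd1 (2.00 ± 0.16) among those higher. The IGF2BP partners were lower in 11 and higher in 5 of 25, with the poly(A)-binding protein gene Pabpc4 (-1.56 ± 0.12) and Ybx1 (-0.56 ± 0.08) lower. Genes of let-7 processing were higher in 6 and lower in 4 of 17, with Ago1 (0.75 ± 0.12) and Zcchc11 (0.62 ± 0.11) higher and Drosha (-0.65 ± 0.11) and Ago2 (-0.94 ± 0.19) lower. Of 14 tested adult-type stem cell genes, a list that includes the class marker Hlf, 8 were higher and 3 lower. In this comparison 59.3% of all genes passed, 30.5% higher and 28.8% lower in Hlf-only wells. The fetal and the adult-type lists both held a larger share of higher genes than that. Whether this is particular to the lists was not tested.

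Across the 12 plates the 6 genes did not move as 1 block. The Pearson correlation of log2 CPM was 0.82 between Igf2bp2 and Hmga2, 0.78 between Hmga2 and Arid3a and 0.60 between Igf2bp2 and Arid3a, as a description over plates that share genotype, session and depth. Igf2bp1 lay between -0.15 and 0.37 with the 5 others, and between -0.53 (Igf2bp3) and 0.43 (Lin28b) without double mutant 3. Lin28b lay at 0.85 with Igf2bp3, but at -0.30 without double mutant 3, so that value rested on 1 thin plate. With Igf2bp2, Arid3a and Hmga2, Lin28b lay at -0.17, 0.18 and 0.13 over the 12 plates and at -0.83, -0.81 and -0.79 over the 11 others than double mutant 3. The genes with the pattern most like Igf2bp2 over 12 plates were Phlpp1 (0.94), Mkl2 (0.92) and Hlf (0.91), those most like Hmga2 were Marcks (0.97), Cxxc5 (0.96) and Rgs2 (0.95), and those most like Arid3a were 4632428N05Rik (0.95), Rassf2 (0.94) and Kdm3b (0.92). Igf2bp1 was most like Iqcg (0.76), Smpx (0.75) and Gpank1 (0.74). For Lin28b (Kpna1, Rangrf and Fastkd5, 0.997, 0.995 and 0.995) and Igf2bp3 (Ankrd6, Fcrl1 and Nlrx1, 0.97, 0.97 and 0.97) the values without double mutant 3 were lower, 0.90 to 0.94 and 0.81 to 0.85. Without that plate the genes most like Lin28b were 2700097O09Rik (0.98), Cs (0.98) and Ube2v2 (0.96).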

How the data were processed

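The authors deposited, per plate, UMI counts per gene and well. They also deposited each as an expected count of transcripts, which the authors had corrected for random barcodes drawn more than once, as the values show. The submitters' processing notes name BWA 0.7.15 and mm10 (GRCm38) without their roles. The sources used here do not give the counting tool or annotation. Here the UMI counts of wells with at least 1000 UMIs outside spike-in rows were summed per plate, or per plate and well class (at least 10 wells), and fitted over all genes with edgeR 4.0.16 (TMM, filterByExpr, quasi-likelihood test, R 4.3.3) with genotype and sort session as terms (plate and class for comparisons between well classes), p-values adjusted by Benjamini-Hochberg over all genes tested. Errors are SE for log2 fold changes and SD for levels. DESeq2 1.42.0, other scalings and left-out plates were alternatives, and the expected counts, rounded, were another. The scripts were tested on simulated data. The 6 genes and all gene lists were chosen with earlier results of these data known. Named genes were the 6, up to 4 of each list with the smallest adjusted p, and the 3 genes with the most similar levels over plates (log2 CPM, prior count 2). The comparison planned for Klf1-only wells had no WT plate; Klf1-positive wells replaced it, and this, like the fits without double mutant 3 and 4 together, was chosen after seeing the data.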

Additional observations from a re-analysis of the deposited data

Results flagged for a closer look

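In 5 of 24 groups of 4 to 10 values tested, 1 plate lay farther from the others than Dixon's 95% limit, where chance gives about 1 in 20. Of the genotypes only the double mutant has 4 plates. WT (3 plates), Rev1 knockout (3) and Pcna K164R (2) fell under that size and were not tested as groups. Flags within a genotype thus fall on double mutant plates by design. Lin28b in the double mutant plates was lowest in plate 3, at 0 CPM, with the next at 32.1. Igf2bp2 was highest in the same plate, at 60.8 CPM with the next at 36.1, while before TMM scaling the 4 plates lay between 33.3 and 35.9 CPM. Hmga2 was lowest in double mutant 4, at 206 CPM with the next at 286. Arid3a was highest in double mutant 4, at 43.8 CPM with the next at 34.7. Igf2bp1 in Klf1-only wells was highest in double mutant 4, at 39.7 CPM with the next at 9.86. Double mutant 3 and double mutant 4 are the thinnest plate and the plate whose Rev1 level goes against its label, and the part of either in these values was not tested.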

How the results depend on the processing

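No paired analysis was possible because the replicate numbers follow the order of deposit and only name a plate. Of 440 values of single genes under other settings, 382 kept their direction and side of the threshold and 26 changed sign, and of 792 with 1 plate left out, 709 and 27.

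Against WT, the 3 genes called in the double mutant became 0 with flow cell in place of session, 0 within session 1, 0 without Klf1 wells, 1 with wells thinned to 1000 UMIs and 1 without double mutant 3 and 4. Against Rev1 knockout the 2 became 1 with RLE scaling, 1 with transcript counts, 1 at 2000 UMIs per well and 1 within session 3, and 0 with flow cell, 0 when thinned, 0 without Klf1 wells and 0 without double mutant 3 and 4. Against Pcna K164R DESeq2 called 1 where edgeR called 0. Thinned, only Igf2bp3 and Hmga2 could be tested between well classes, and the calls were 0 of these 2 (Hlf-only against unmarked), 2 of 2 (Klf1-only against unmarked) and 2 of 2 (Hlf-only against Klf1-only). In Hlf-only wells double mutant against WT had 0 of 4 tested, without Lin28b and Igf2bp1. With 1 plate left out the calls ranged from 0 to 4 (double mutant against WT), 0 to 2 (against Rev1 knockout), 3 to 5 (Hlf-only against unmarked), 4 to 5 (Klf1-only against unmarked) and 0 to 1 (double mutant against WT in Hlf-only wells).

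The log2 differences that changed sign were all of genes not called in that comparison, apart from Igf2bp3 in Hlf-only against unmarked wells, and the cause was not tested. In double mutant against WT, Igf2bp3 became 0.08 with flow cell, 0.29 within session 1, 0.02 thinned, 0.05 without Klf1 wells and 0.28 without double mutant 3 and 4, and Igf2bp1 became -0.55 within session 1 and -0.55 without those plates. In Rev1 knockout against WT thinned, Igf2bp1 became -0.76, Hmga2 -0.17 and Arid3a 0.40. In Pcna K164R against WT, Igf2bp3 became -0.0016 and Hmga2 0.22 with flow cell, Igf2bp1 -0.11 within session 1 and Igf2bp3 -0.12 thinned. In double mutant against Rev1 knockout, Igf2bp1 became -0.26 and Igf2bp3 0.00036 with flow cell, Igf2bp1 -0.04 without Klf1 wells, and Igf2bp1 -1.27 and Igf2bp3 0.20 without double mutant 3 and 4. In double mutant against Pcna K164R, Igf2bp1 became 0.01 with no session term, and Igf2bp3 0.08 with flow cell and 0.14 thinned. In Hlf-only against unmarked wells thinned, Igf2bp3 became 0.08 and Hmga2 0.06. Between double mutant and WT, Lin28b became 0.10 in unmarked wells with no session term and Igf2bp3 0.07 in Klf1-positive wells thinned.

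With 1 plate left out, Igf2bp1 ranged from -0.52 to 1.43 (double mutant against WT), -0.18 to 0.80 (Rev1 knockout against WT), -0.09 to 1.87 (Pcna K164R against WT), -1.19 to 0.62 (double mutant against Rev1 knockout), -0.44 to 0.36 (against Pcna K164R), -0.63 to 1.47 (Hlf-only wells) and -0.10 to 2.56 (Klf1-positive wells). Igf2bp3 ranged from -0.58 to 0.14 (Pcna K164R against WT) and -0.22 to 0.29 (Hlf-only wells), Hmga2 from -0.04 to 0.25 (Rev1 knockout) and -0.68 to 0.11 (Pcna K164R), and Arid3a from -0.64 to 0.06 (Pcna K164R). Lin28b ranged from -0.03 to 0.21 (Klf1-only against unmarked) and -0.84 to 0.35 (double mutant against WT in unmarked wells). Thinning moved the median of all genes to -0.18 in Klf1-only against unmarked wells and to 0.18 in Hlf-only against Klf1-only wells. Depth limits double mutant 3 most, where 3 UMIs stand for 25.7 CPM.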
